A study of Homo sapiens with 6 samples.

Results

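The genes described here are 10 members of the semaphorin system: the secreted ligands SEMA3A, SEMA3C and SEMA3F, the membrane-bound ligands SEMA4B, SEMA4D and SEMA4G, the plexin receptors PLXNA1 and PLXNB2, and the neuropilin co-receptors NRP1 and NRP2. They were followed through every probe set whose only gene symbol in the platform annotation is one of these symbols. That gave 33 of the 54613 probe sets that are not controls, and 10 of 19775 genes. The 10 genes were chosen from these families with the M5 and SW480 signals of these same arrays known, that is, partly on the difference between the populations. Their differences between the populations are therefore given as a description, with no p-value. RNA was measured in M5, cells that the labels describe as recovered from SW480 through in vivo selection and as more able to colonise the liver, and in SW480, the parental human colorectal cancer cell line. Each population has 3 Affymetrix arrays of total RNA that the labels call biological replicates. All cells were cultured in the same serum-supplemented medium. The labels name neither the host animal nor the number of selection rounds, and M5 is 1 selected population.

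Semaphorins are guidance cues first studied in growing axons, where they repel or attract the growth cone. The secreted class 3 ligands bind a neuropilin, which has a short cytoplasmic tail and signals through an attached A-type plexin. The membrane-bound class 4 ligands bind B-type plexins directly. Plexins carry a cytoplasmic domain that inactivates small GTPases of the Ras family, and through it they loosen adhesion and reshape the actin skeleton. In epithelium and in tumours the same genes are known for roles in cell migration and vessel growth.

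The arrays differed in overall brightness by up to 4.13 times, measured as the 2% trimmed mean of the deposited signals, and replicate 1 of each population was its dimmest array. Signals below are quantile normalised unless stated otherwise. M5 replicates 2 and 3 lay closer to each other than any other pair of arrays, with a median absolute deviation of 0.0842 in log2 signal over 4854 bright probe sets, against 0.217 to 0.363 for the other 14 pairs. In means and standard deviations (SD) these 2 arrays therefore entered as 1 sample. The log2 differences, their standard errors (SE) and the p-values come from the limma fit, which holds all 3 M5 arrays as separate samples and shares the estimate of spread across genes, so they lean on a pair that may not be independent. The 18S ribosomal RNA control was high on M5 replicate 1 and SW480 replicates 1 and 2, and low on M5 replicates 2 and 3 and SW480 replicate 3. Among 10 markers of colorectal epithelium, 7 passed the filter on low signals, including EPCAM and the keratin genes KRT8, KRT18 and KRT19, while CDX1, CDX2 and CDH17 lay among the dimmest 40% of probe sets, which the filter removes. Summed signals of 8 endothelial markers were 42.2 to 69.8 on M5 arrays and 38.1 to 62.1 on SW480 arrays, and CDH5, VWF, TEK and EMCN did not pass the filter. The other 4, PECAM1, CLDN5, ERG and ESAM, passed it, with log2 differences from -0.59 (PECAM1) to 1.60 (ESAM). No detection calls came with the signals, and the background level is therefore not known.

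SEMA3A and SEMA3C had the largest differences among the 10 genes, both towards lower signal in M5, and SEMA4D was lower by less but on every M5 array. The other 7 genes had overlapping groups and log2 differences between -0.26 and 0.30. Among the 9 members that passed the filter, all but NRP1, groups did not overlap for 2, SEMA3A and SEMA4D, both with M5 below. Of the 14251 genes tested, 8.38% had M5 below in the same way. No member had M5 above without overlap, a pattern that 7.72% of all genes showed. A difference of at least 2-fold towards lower signal was seen for 2 of the 9, SEMA3A and SEMA3C, against 4.77% of all genes. Towards higher signal it was seen for none, against 4.58%. These shares are the background of the same contrast that was in view when the genes were chosen.

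**Figure D1:**
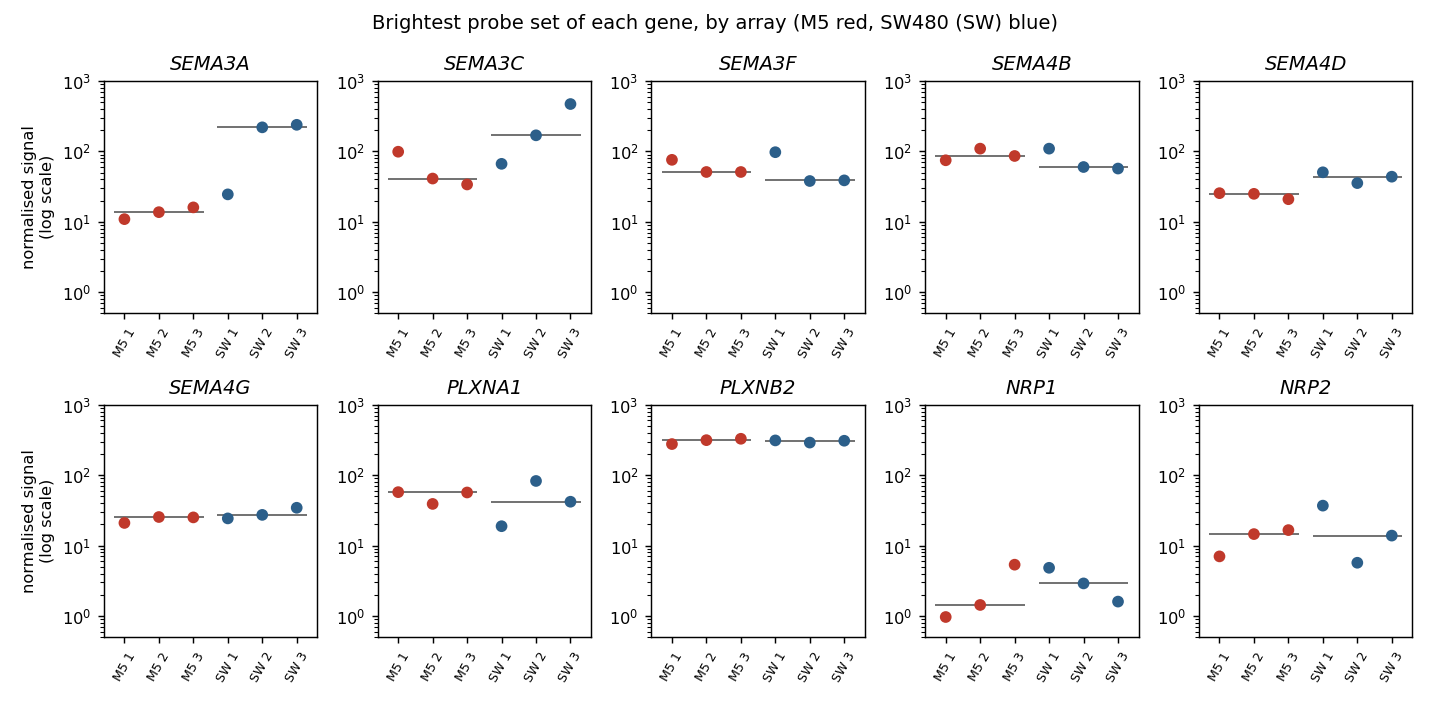
Normalised signal (log scale) of the brightest probe set of each of the 10 genes on every array, with M5 arrays in red at the left of each panel and SW480 arrays in blue at the right; the grey line is the median of 3 arrays. SEMA3A sits between 10.9 and 16.1 on M5 arrays and between 24.6 and 239 on SW480 arrays, and PLXNB2 lies between 276 and 329 on all 6 arrays.

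SEMA3A encodes a secreted ligand that collapses growth cones through neuropilin-1 and A-type plexins. Its brightest probe set had signals of 10.9, 13.7 and 16.1 on M5 replicates 1 to 3, against 24.6, 220 and 238.9 on SW480 replicates 1 to 3. All M5 arrays were low, SW480 replicates 2 and 3 were high, and SW480 replicate 1 lay near the M5 arrays without overlapping them. The means were 12.9 ± 2.80 (SD, n = 2) in M5 and 161 ± 119 (SD, n = 3) in SW480. The log2 difference was -2.89 (SE 0.69), or 7.40-fold lower in M5 on the scale of log2(signal + 1.7), and with M5 replicates 2 and 3 averaged into 1 sample it was -2.95 (SE 0.78).

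The other probe sets of SEMA3A also had M5 below SW480, with SW480 replicate 1 nearest to the M5 arrays. Its second probe set had signals of 3.07, 0.967 and 6.07 on M5 replicates 1 to 3, against 7.42, 75.4 and 97.1 on SW480 replicates 1 to 3. The third had signals of 1.43, 0.433 and 0.25 on M5 arrays and 1.80, 19.8 and 45.8 on SW480 arrays. M5 lay below SW480 without overlap on all 3 SEMA3A probe sets, but the gap to SW480 replicate 1 was narrow on each. Between the replicate 1 arrays alone the log2 differences were -1.06, -0.94 and -0.16, and between replicates 2 and 3 of each population they were -3.80, -4.26 and -3.97, in the same order of probe sets. Within the arrays of high 18S control the difference of the brightest probe set was -2.60, and within those of low 18S control it was -3.86. Leaving out 1 array in turn gave differences from -3.99, without SW480 replicate 1, to -2.26, without SW480 replicate 3. All M5 signals of the weakest probe set and 1 of the second lay below the pseudocount of 1.7. All M5 signals of both lay below 6.69, the signal at the filter, so the folds of these 2 probe sets are not firm. Both passed the filter only through their SW480 signals, so their shared direction is no separate support for the SEMA3A difference. The part of array brightness in the size of these differences was not tested.

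SEMA3C encodes a related secreted ligand that binds both neuropilins and is known for guiding neural crest cells into the heart outflow tract in mice. Its brightest probe set had signals of 99.1, 41.2 and 34.0 on M5 replicates 1 to 3, against 66.7, 169.5 and 471 on SW480 replicates 1 to 3. The groups overlapped, because M5 replicate 1 was above SW480 replicate 1. The means were 68.4 ± 43.5 (SD, n = 2) in M5 and 236 ± 210 (SD, n = 3) in SW480, a log2 difference of -1.72 (SE 0.60). The sign turned between subsets of arrays: the difference was 0.56 between the replicate 1 arrays and -2.86 between replicates 2 and 3 of each population. It was -0.10 within the arrays of high 18S control and -3.60 within those of low 18S control. Without SW480 replicate 3 it was -0.99. The second probe set had signals of 37.4, 13.3 and 26.3 on M5 arrays and 10.2, 30.5 and 75.8 on SW480 arrays, with differences of 1.72 between the replicate 1 arrays and -1.28 between the others. Over all 6 arrays the second probe set differed by only -0.28, so the size of the SEMA3C difference depends on the probe set as well as on the arrays. Both SEMA3C probe sets carry the array maker's suffix for probes that match several transcripts. In bulk RNA, fewer cells that express a gene and less of its RNA per cell cannot be told apart, and this holds for every gene here.

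**Figure D2:**
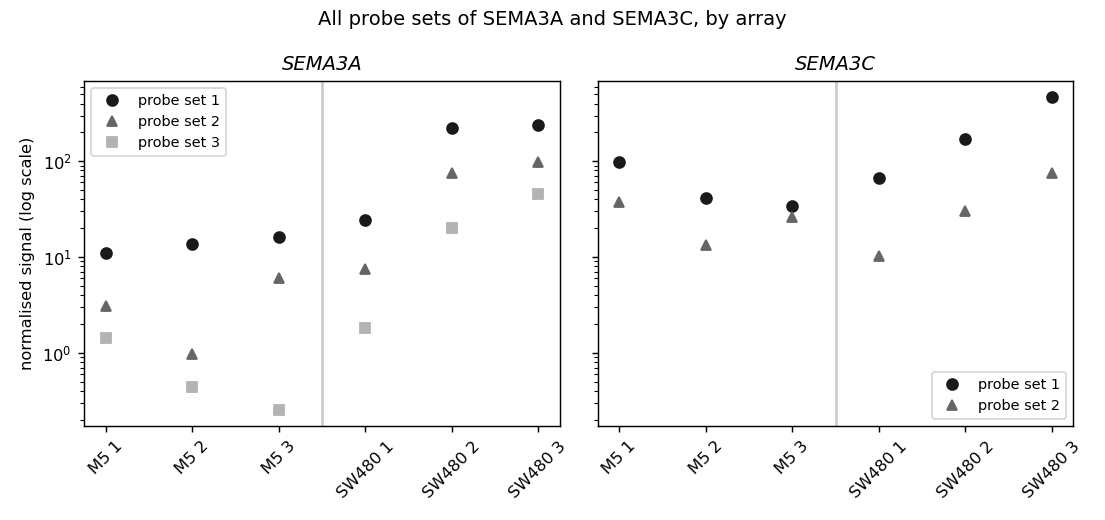
Normalised signal (log scale) of the 3 probe sets of SEMA3A (left) and the 2 of SEMA3C (right) on each array, M5 arrays left of the line and SW480 arrays right of it; each marker shape is 1 probe set, in order of mean signal. SW480 replicate 1 lies near the M5 arrays for SEMA3A, and for SEMA3C it lies below M5 replicate 1 on both probe sets.

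SEMA3F, whose product binds neuropilin-2 in preference to neuropilin-1 and is known as an inhibitor of tumour vessels, had overlapping groups. Its signals were 76.0, 51.1 and 51.1 on M5 replicates 1 to 3, against 97.6, 38.0 and 38.8 on SW480 replicates 1 to 3. Replicate 1 was the highest array in each population. The log2 difference was 0.15 (SE 0.39). The other 2 SEMA3F probe sets lay below the filter, with signals of 1.43 to 27.5.

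Promoter windows are shown for SEMA3C and SEMA4D, the members with the larger differences for which a window was at hand. Windows come from RefSeq (GRCh38.p14) and run from 250 bases before to 50 after an annotated start. They were found for 8 of the 10 genes, 14 windows in all. SEMA3C has 2 annotated starts on the minus strand of chromosome 7, at chr7:80922340-80922639 and chr7:80919002-80919301. Capitals mark GGGCGG or its reverse complement, the core bound by SP and KLF factors, which 45% of 35116 RefSeq windows hold on either strand.

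SEMA3C, upstream start: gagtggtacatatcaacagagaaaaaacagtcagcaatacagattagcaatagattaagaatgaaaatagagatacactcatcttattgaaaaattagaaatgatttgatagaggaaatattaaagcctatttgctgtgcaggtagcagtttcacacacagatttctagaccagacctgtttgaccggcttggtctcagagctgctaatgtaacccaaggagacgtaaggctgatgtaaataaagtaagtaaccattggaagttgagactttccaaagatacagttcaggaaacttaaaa
SEMA3C, downstream start: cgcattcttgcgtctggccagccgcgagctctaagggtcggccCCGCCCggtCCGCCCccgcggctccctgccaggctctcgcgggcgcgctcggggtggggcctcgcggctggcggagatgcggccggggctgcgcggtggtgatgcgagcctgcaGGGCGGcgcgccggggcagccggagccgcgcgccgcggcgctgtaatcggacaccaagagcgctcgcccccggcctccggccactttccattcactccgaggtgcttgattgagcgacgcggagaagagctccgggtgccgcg
SEMA4D: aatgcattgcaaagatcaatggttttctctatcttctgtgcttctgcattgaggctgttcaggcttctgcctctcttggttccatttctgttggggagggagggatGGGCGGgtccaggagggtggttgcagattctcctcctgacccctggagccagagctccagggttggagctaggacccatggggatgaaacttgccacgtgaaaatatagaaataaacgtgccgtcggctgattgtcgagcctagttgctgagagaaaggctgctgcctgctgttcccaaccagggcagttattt

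The windows of the SEMA3C starts are unlike in composition. The upstream one has 2 CpG dinucleotides and 36% G and C, and the downstream one has 46 CpG dinucleotides, 75.7% G and C and 3 matches to GGGCGG. The median over all RefSeq windows is 14 CpG dinucleotides. The SEMA4D window, at chr9:89495607-89495906 on the minus strand, has 6 CpG dinucleotides, 52.3% G and C and 1 such match. Another 4 motifs were searched on both strands: TGANTCA (AP-1), CAGGTG (an E-box bound by ZEB and SNAI factors), CTTTGAT (TCF/LEF) and TATAAA (the TATA box), which 7.71%, 20.6%, 2.62% and 11.5% of all windows hold. None of these 4 was in the 3 windows shown, and no matches in them overlapped. The arrays do not tell which start was in use.

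SEMA4D, a transmembrane ligand of B-type plexins that is shed from the cell surface and is known for stimulating vessel growth, was lower on every M5 array. Its kept probe set had signals of 25.6, 25.0 and 21.0 on M5 replicates 1 to 3, against 50.6, 35.5 and 43.8 on SW480 replicates 1 to 3. The groups did not overlap, and unlike SEMA3A, SW480 replicate 1 was the highest array. The means were 24.3 ± 1.81 (SD, n = 2) in M5 and 43.3 ± 7.54 (SD, n = 3) in SW480. The log2 difference was -0.81 (SE 0.33), or 1.75-fold lower in M5, and it was -0.94 between the replicate 1 arrays and -0.74 between replicates 2 and 3. It was -0.70 where the 18S control was high and -0.89 where it was low. The second SEMA4D probe set had signals of only 0.967 to 4.42 on M5 arrays and 0.617 to 0.80 on SW480 arrays, near the bottom of the scale, with M5 above.

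SEMA4B and SEMA4G encode transmembrane ligands of the same class. SEMA4B signals were 74.9, 109.6 and 86.2 on M5 replicates 1 to 3, against 109.6, 60.1 and 57.2 on SW480 replicates 1 to 3. The groups overlapped through SW480 replicate 1, and the log2 difference of 0.30 (SE 0.32) was -0.54 between the replicate 1 arrays and 0.71 between the others. SEMA4G signals were 21.0, 25.4 and 25.1 on M5 arrays and 24.3, 27.3 and 34.4 on SW480 arrays. They overlapped as well, with a log2 difference of -0.24 (SE 0.35). The second SEMA4G probe set lay below the filter, at 4.13 to 9.05 on M5 arrays and 0.80 to 3.23 on SW480 arrays, so its direction was opposite to that of the brighter one.

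Among the receptors, PLXNB2, a B-type plexin that binds class 4 semaphorins and is known in epithelial cells, had nearly equal signals throughout. They were 276, 314 and 328.5 on M5 replicates 1 to 3, against 311, 290 and 308 on SW480 replicates 1 to 3. The log2 difference was 0.01 (SE 0.19), and no array stood apart. PLXNA1, the A-type plexin that pairs with neuropilins, had signals of 57.4, 39.0 and 56.7 on M5 arrays and 18.8, 82.7 and 41.9 on SW480 arrays. The SW480 arrays enclosed the M5 arrays, and the log2 difference was 0.30 (SE 0.46), with 1.52 between the replicate 1 arrays and -0.32 between the others. Its second kept probe set had a log2 difference of -0.10.

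The neuropilin genes gave little signal. NRP1 encodes the main co-receptor of SEMA3A and also binds VEGF, and none of its 4 probe sets passed the filter. Its brightest probe set had signals of 0.967, 1.43 and 5.35 on M5 replicates 1 to 3, against 4.83, 2.90 and 1.60 on SW480 replicates 1 to 3, values around the pseudocount. No difference was detectable at this signal. NRP2, the co-receptor that SEMA3F prefers, had 3 of 11 probe sets above the filter. The brightest had signals of 7.02, 14.6 and 16.6 on M5 arrays and 36.9, 5.70 and 13.9 on SW480 arrays. The groups overlapped, and the log2 difference of -0.26 (SE 0.62) was -2.15 between the replicate 1 arrays and 0.68 between the others. The dimmest of the 3 above the filter had M5 below without overlap (-0.67), at 5.83 to 8.68 on M5 arrays and 8.72 to 16.5 on SW480 arrays. The remaining one overlapped, with a difference of 0.28. Over the 11 NRP2 probe sets the difference was negative for 3 and ran from -0.67 to 0.93, with no shared direction.

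**Figure D3:**
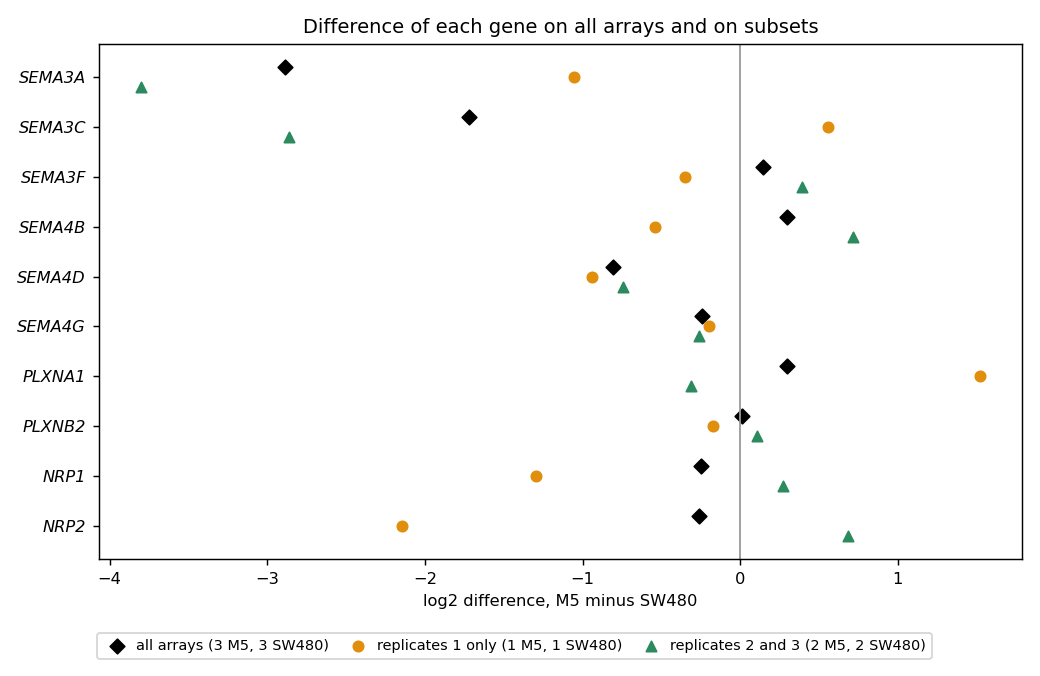
Log2 difference in signal, M5 minus SW480, of each gene's brightest probe set over all 6 arrays (black diamonds), between the replicate 1 arrays (orange circles) and between replicates 2 and 3 of each population (green triangles). SEMA4D lies at -0.94 and -0.74 in these subsets, while SEMA3C lies at 0.56 and -2.86.

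The rest of the pathway was read in 4 lists of genes that are no members: 21 other semaphorins and plexins, 33 signalling partners, 8 VEGF ligands and receptors that share the neuropilins, and 7 enzymes that cleave semaphorins. Of these 69 genes, 53 passed the filter and were tested with limma over all 14251 genes. These lists too were drawn up with earlier results of these data known, and the first is what remained of the families once the members had been taken, so the counts and p-values below are no independent evidence on the pathway. None passed an adjusted p of 0.05, where 0.0982% of all genes were called higher in M5 and 0.0912% lower. At an unadjusted p under 0.05, limma gave 2 of the 53 higher and 4 lower. Over all 14251 genes it gave 777 higher and 887 lower. The 2 higher list genes were RRAS and RHOA, and the 4 lower were PLXNC1, FYN, LIMK1 and DPYSL3. LIMK1, a kinase that inhibits the actin-severing protein cofilin, and DPYSL3, a collapsin response mediator, are named after their values were seen. Both had overlapping groups, with limma adjusted p of 0.368 and 0.372. LIMK1 signals on M5 replicates 2 and 3 were only 2.37 and 3.15. M5 lay above SW480 without overlap for 4 of the 53 and below for 4, or 7.55% each. The median log2 difference was -0.10 over the 53 and -0.01 over all genes.

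Among the other semaphorins and plexins, 13 of 21 passed the filter, with a median log2 difference of 0.13. PLXNC1, a plexin known as the receptor of SEMA7A, had signals of 5.03, 1.50 and 3.45 on M5 replicates 1 to 3, against 14.6, 14.0 and 14.2 on SW480 replicates 1 to 3. The groups did not overlap, the M5 signals were close to the pseudocount, and the log2 difference of -1.73 (SE 0.62) had a limma adjusted p of 0.337. The mean over its 2 kept probe sets differed by only -0.38 (limma adjusted p = 0.864), so the difference rests on 1 probe set. SEMA3G, a further secreted class 3 ligand, had signals of 8.07, 1.35 and 2.53 on M5 arrays and 10.2, 9.53 and 13.8 on SW480 arrays. The log2 difference was -1.35 (SE 0.70, limma adjusted p = 0.487), with -0.28 between the replicate 1 arrays and -1.88 between the others. Its signals on M5 replicates 2 and 3 were close to the pseudocount. The M5 mean of 5.00 lay below the filter signal of 6.69, so SEMA3G passed the filter through its SW480 signals. SEMA4F, a class 4 ligand, stood the other way, with 85.1, 67.9 and 70.5 on M5 arrays and 34.7, 63.3 and 46.1 on SW480 arrays (0.65, SE 0.31, limma adjusted p = 0.445). PLXND1, a plexin known from vessel patterning in mice and named here after its values were seen, had M5 below SW480 without overlap and a log2 difference of -0.57 (SE 0.30, limma adjusted p = 0.485). SEMA3D and SEMA3E, which lie on both sides of SEMA3A on chromosome 7, did not pass the filter, nor did SEMA3B, SEMA4A, SEMA5A, SEMA5B, SEMA6C and SEMA6D.

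Of the signalling partners, 29 of 33 were tested, with a median log2 difference of -0.16. RRAS, a small GTPase of the Ras family that plexins inactivate, had signals of 277, 265 and 298 on M5 replicates 1 to 3, against 208, 72.1 and 116 on SW480 replicates 1 to 3. The M5 arrays were all above the SW480 arrays, and the log2 difference of 1.20 (SE 0.33) had a limma adjusted p of 0.233. RHOA, the GTPase that B-type plexins activate through the exchange factors ARHGEF11 and ARHGEF12, had signals of 4672, 4406 and 4433 on M5 arrays and 3358, 3501 and 3203 on SW480 arrays. Its groups did not overlap either, and the difference was small (0.43, SE 0.12, limma adjusted p = 0.233). FYN, a kinase that acts downstream of SEMA3A in mouse neurons, had signals of 69.8, 58.8 and 31.1 on M5 arrays and 113.5, 90.5 and 77.2 on SW480 arrays (-0.86, SE 0.34, limma adjusted p = 0.379). The FYN difference was -0.19 in the mean over its 4 kept probe sets and -0.52 without M5 replicate 3. With M5 replicates 2 and 3 averaged into 1 sample, the limma adjusted p was 0.734 for RRAS and 0.776 for RHOA. Without SW480 replicate 1, RRAS passed with a log2 difference of 1.61 and a limma adjusted p of 0.0187. Calls rose over all genes as well in that setting, to 110 higher and 64 lower, from 14 and 13 with all arrays. With replicate 1 of both populations left out, limma called 2 of 49 pathway genes higher in M5, RRAS and RHOA, where 5.21% of 14180 genes were called higher. It called 2 of the 49 lower, MET, a receptor kinase that B-type plexins bind, and ARHGEF12, where 6.48% of all genes were called lower. The M5 arrays in that fit are the pair counted above as 1 sample, so these calls have no replication in M5, and their number is near that background. Over all arrays MET differed by -0.56 on its brightest probe set and by -0.02 in the mean over its 4 kept probe sets. ARHGEF12 differed by -0.46 on its brightest and by -0.15 in the mean over its 5, so both depend on the probe set.

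None of the 4 tested VEGF genes, VEGFA, VEGFB, PGF and FLT1, separated the populations, with log2 differences from -0.45 to 0.34. Among the 7 cleaving enzymes the median difference was 0.01. PCSK6, a proprotein convertase related to furin, had signals of 16.1, 17.2 and 15.2 on M5 replicates 1 to 3, against 7.25, 10.6 and 9.23 on SW480 replicates 1 to 3. The groups did not overlap, and the log2 difference of 0.75 (SE 0.46) had a limma adjusted p of 0.562. It rests on 1 probe set, since the mean over the 2 kept PCSK6 probe sets differed by 0.26 (limma adjusted p = 0.895). FURIN, which cleaves class 3 semaphorins and was named after its values were seen, had 50.8, 41.3 and 48.6 on M5 arrays and 55.1, 22.5 and 5.90 on SW480 arrays, so the groups overlapped through SW480 replicate 1 (1.15, SE 0.59, limma adjusted p = 0.482).

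**Figure D4:**
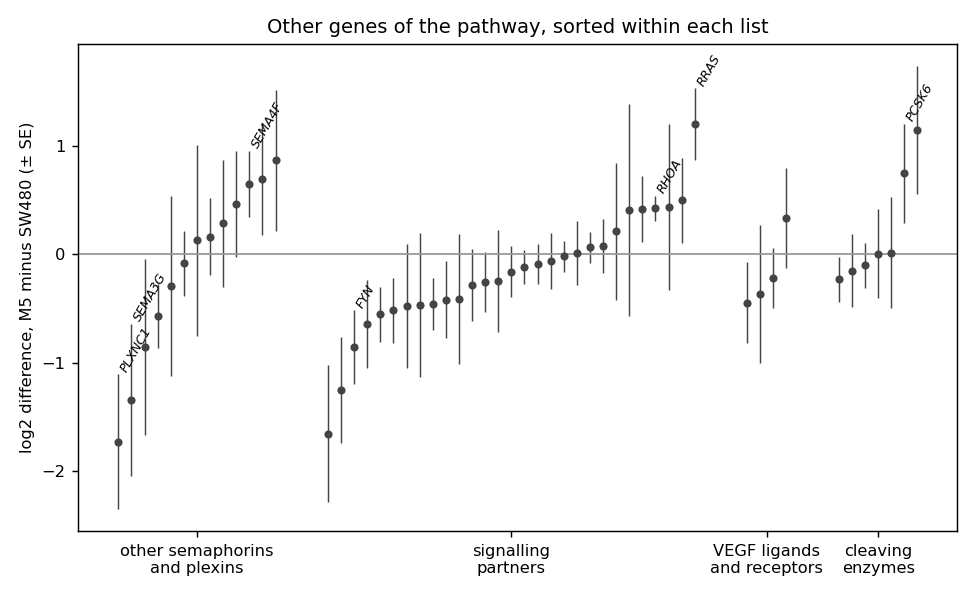
Log2 difference in signal, M5 minus SW480, with its SE, for the 53 tested genes of the 4 pathway lists, sorted within each list; the genes named by rule are labelled. RRAS (1.20) and PLXNC1 (-1.73) are the ends of the range, and none of the 53 passed the threshold over all genes.

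SEMA3A and SEMA3C lie in the same stretch of chromosome 7, together with SEMA3E and SEMA3D. The protein-coding genes from 6 places before SEMA3C to 6 places after SEMA3A, in RefSeq order (GRCh38.p14), were read as neighbours. The stretch was chosen after the values were seen, so it is described without a test. It holds 18 genes, of which 16 are on the array and 11 passed the filter. Among the 9 neighbours that passed, besides the semaphorins themselves, the log2 difference was negative for 5, with a median of -0.13. Between replicates 2 and 3 of each population it was negative for 6 of the 9, and between the replicate 1 arrays for 1. CD36, the fatty acid receptor gene next to SEMA3C, had signals of 4.43, 5.02 and 0.967 on M5 replicates 1 to 3, against 1.80, 24.1 and 166 on SW480 replicates 1 to 3. Like SEMA3C, it was low on SW480 replicate 1 and highest on SW480 replicate 3. HGF, on the other side of SEMA3C, had a log2 difference of 0.66 between replicates 2 and 3 of each population, and PCLO, nearer to SEMA3A, one of -0.55. GNAI1 had signals of 290, 252 and 276 on M5 arrays, against 47.4, 401 and 397 on SW480 arrays, and was thus also low on SW480 replicate 1. PHTF2 had 120 to 159 on M5 arrays, against 77.7, 192 and 239.7 on SW480 arrays, and TMEM243 had 103.5 to 156.2 on M5 arrays, against 106, 179 and 234 on SW480 arrays. Both were lowest on replicate 1 and highest on replicate 3 within SW480, their groups overlapped, and between replicates 2 and 3 of each population their log2 differences were -0.78 and -0.95. HGF, TMEM60 and DMTF1 had positive differences on those arrays. TMEM60 had 181.3 to 219.4 on M5 arrays, against 98.15 to 129.6 on SW480 arrays. It was the only one of the 9 neighbours whose groups did not overlap, with M5 above. Over all arrays the log2 difference was 0.80 for TMEM60 and 0.46 for GNAI1.

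**Figure D5:**
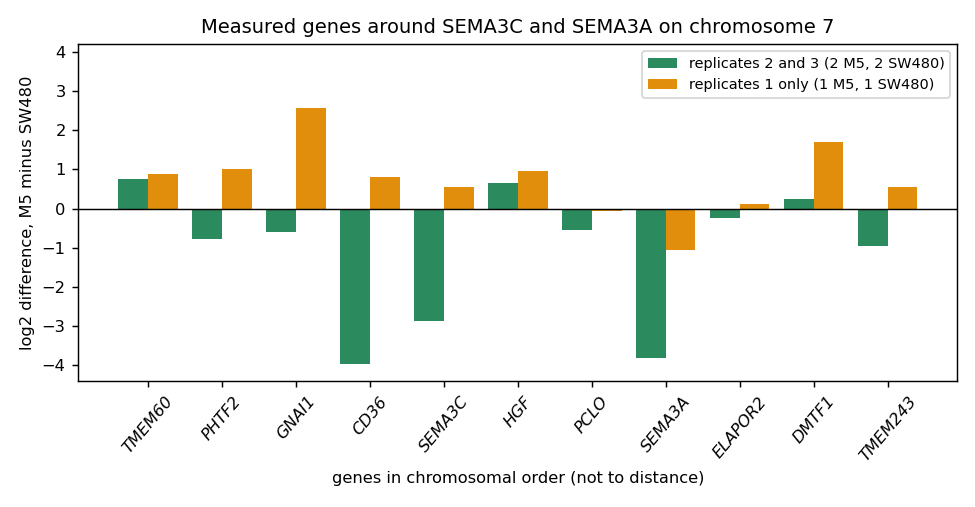
Log2 difference in signal, M5 minus SW480, of the 11 genes around SEMA3C and SEMA3A that passed the filter, in chromosomal order, between replicates 2 and 3 of each population (green) and between the replicate 1 arrays (orange). CD36, SEMA3C and SEMA3A reach -3.96, -2.86 and -3.80 between replicates 2 and 3, and HGF, between SEMA3C and SEMA3A, reaches 0.66.

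Genes with the most similar course over the 6 arrays were sought for the tested member with the lowest and the one with the highest difference. Likeness was the root mean square distance between log2 signals after each gene was centred on its own mean. For SEMA3A the nearest 3 of all genes tested were MGAT4A, CXCR4 and TMTC1, at distances of 0.449, 0.474 and 0.629, where the median gene lay at 1.83. CXCR4, a chemokine receptor gene, had signals of 0.467, 3.28 and 0.383 on M5 replicates 1 to 3, against 5.52, 39.0 and 44.6 on SW480 replicates 1 to 3. For PLXNA1 they were ZNF500, TTC12 and SND1-IT1, at 0.15, 0.164 and 0.173, where the median gene lay at 0.76. These distances rest on 6 arrays and carry no test. The M5 means of MGAT4A, CXCR4 and TMTC1 were 1.61, 1.15 and 1.92, around the pseudocount of 1.7. These genes thus passed the filter only through their SW480 signals, and the groups of TMTC1 overlapped.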

How the data were processed

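The authors deposited 1 table of probe set intensities on a linear scale, from GCOS 1.4 per the submitters' processing notes. Settings and build were not given in the sources used here. Of 54675 probe sets, 62 controls were left out, and genes were named from the 41091 probe sets with 1 symbol. After quantile normalisation, log2(signal + 1.7) was tested, where 1.7 is the 20th percentile of deposited values. A filter on the mean signal removed the dimmest 40% and kept 32765 probe sets. M5 was compared with SW480 in limma 3.58.1 (R 4.3.3, lmFit and eBayes with an intensity trend), two-sided. The brightest kept probe set stood for its gene, and p-values were adjusted by Benjamini-Hochberg over 14251 genes with a threshold of 0.05. P-values measure only the spread between these arrays, whose number limits the precision. The scripts were tested on simulated data.

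The members and lists were chosen with earlier results of these data known. Genes named from the lists were those past the threshold and, per list, the 3 with the largest difference whose groups did not overlap. Of the 69 list genes, 65 were matched. GIPC1, PAK1, RHOD, VEGFD and the leukocyte marker CD68 were not analysed here. Alternatives changed the scaling, pseudocount (0.425 and 6.8), filter (none and 60%), variance model, probe set rule, arrays used, blocks and the adjustment. The marker lists had summed signals in M5 and SW480 arrays of 179 to 224 and 228 to 357 (fibroblast), 105 to 228 and 42.3 to 148 (leukocyte), 1088 to 1272 and 890 to 1707 (neural), and 11340 to 12310 and 9113 to 13010 (colorectal epithelium). TUBB3 alone made up most of the neural sums, at 802 to 1614 over all arrays, and LYZ reached 161 in the leukocyte sums. Among the fibroblast markers, COL3A1 alone had 45.0 to 81.2 on M5 arrays and 104 to 223 on SW480 arrays. The 6 tested fibroblast markers had 3 positive and 3 negative log2 differences. GFAP, GAP43, SYP, RBFOX3, PTPRC, CD14, FAP and LUM did not pass the filter. Figures were drawn with matplotlib 3.10.9.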

Additional observations from a re-analysis of the deposited data

How the results depend on the processing

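The 4 pathway lists gave 0 genes higher and 0 lower in M5, and all genes gave 14 and 13. Without replicate 1 of either population, where the M5 arrays count as 1 sample, 2 of 49 pathway genes were higher and 2 lower, and 739 and 919 of 14180 genes. Leaving out 1 array in turn gave 0 to 1 pathway genes higher and 0 lower, and 1 to 117 and 2 to 182 of all genes. Higher and lower counts of all genes were 6 and 3 without scaling, 8 and 5 with arrays centred on the median, 8 lower with the smaller pseudocount, 5 lower with the stricter filter, 0 and 0 without the trend, 9 and 7 with the mean of all kept probe sets, 2 and 3 with M5 replicates 2 and 3 averaged, 8 lower with the 18S control block, and 9 and 6 when adjusted over all kept probe sets, which was added after seeing the data. The cause was not tested.

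SEMA3A kept its direction in all 17 alternatives run on it, from -3.99 to -2.26, as did SEMA4D, from -0.93 to -0.70, and SEMA3C, from -2.91 to -0.99; SEMA3C reached -2.91 without the replicate 1 arrays and -0.99 without SW480 replicate 3. SEMA4B and SEMA4G also kept their direction in all 17. The filter settings and the replicate block could not change a member's value, and most other alternatives reuse the same arrays. None was the replicate 1 pair alone, where SEMA3C differed by 0.56 and SEMA4B by -0.54. Kept directions are therefore a description and no separate support. NRP2 turned to 0.71 without the replicate 1 arrays and kept its sign in 14 of 17 alternatives. SEMA3F kept its sign in 14 of 17, PLXNA1 in 15 of 17, PLXNB2 in 12 of 17 and NRP1 in 14 of 16. PLXNC1 ran from -2.01 to 0.35 when 1 array was left out, and its sign turned without SW480 replicate 2, where another of its probe sets became the brightest. Deviations from the mean of each population correlated at 0.11, 0.01 and 0.07 between equal replicate numbers 1, 2 and 3. The replicate 1 arrays had the highest value of any pair across the populations, while M5 replicate 2 correlated best with SW480 replicate 3 (0.08). M5 replicate 1 also lay nearest to SW480 replicate 1 on bright probe sets, with a median absolute deviation of 0.217. Whether the replicate numbers pair the samples is not settled by these values. The replicate block gave 15 genes higher and 14 lower and no pathway gene in limma. Without detection calls, signals near the pseudocount, as for NRP1, set no firm fold.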
